A study of Mus musculus with 21 samples.

Results

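E113Q and E76Q are groups of C3H/10T1/2 cells, a mouse embryonic line of mesenchymal progenitors, that carry histone H2B with a glutamate replaced by glutamine at position E113 or at position E76. Each group had 3 RNA sequencing libraries. The other groups of the series, also of 3 libraries each, carry wild-type H2B (WT) or E71K, E71Q, E76K or E113K, so that 21 libraries in 7 groups share the cell line and the culture medium and differ by the H2B label. The comparison covers the 11923 of 24091 genes whose mean over the 6 libraries of E113Q and E76Q was at least 1 TPM, and 5941 genes were at 0 in these 6 libraries. TPM, a measure of transcript abundance, scales the reads of a gene by its transcript length and by the library total. A gene just inside this limit was Gm10791, with 1.0, 1.07 and 0.855 TPM in E76Q and 0.961, 1.71 and 0.402 TPM in E113Q. Just outside it was Lama5, with 0.291, 0.310 and 0.291 TPM in E76Q and 1.41, 1.51 and 2.18 TPM in E113Q. The labels do not say how the H2B was introduced, how much of the cells' H2B carries the change, or whether a group is a pool or was grown from 1 cell. A difference between the cultures therefore cannot be told apart from the substitution. The series' design text calls the replicates biological and independent, without saying what separated them.

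H2B and H2A pair in the nucleosome, the protein core around which DNA is wrapped. The glutamate E113 of H2B contributes to the acidic patch, a negatively charged surface formed by H2A and H2B to which remodellers, histone modifiers and the tail of a neighbouring H4 can dock. The glutamate E76 lies inside the core, where H2B meets H4 and the H2A-H2B dimer is held to the H3-H4 tetramer. Glutamine keeps about the shape of glutamate but carries no charge. C3H/10T1/2 cells can be driven to cartilage, fat, bone or smooth muscle fates by added signals, so genes of those lineages are the natural ones to follow in them.

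E113Q replicate 3 stood apart from its mates. Across genes, Pearson's r of the log2 values was 0.962 between E113Q replicates 1 and 2 and 0.942 to 0.943 between either of them and replicate 3, and 0.899 to 0.917 between libraries of the different groups. Genes of mitosis, which are transcribed in dividing cells, separated it most plainly: their median level, relative to the E76Q mean on the log2(TPM + 1) scale, was 1.39 and 1.37 in E113Q replicates 1 and 2 and -0.43 in replicate 3. Counts over all genes and over most lists are therefore also given without that library. Mir6236, a locus annotated as a microRNA, took 9.85%, 9.02% and 15% of the TPM in E76Q and 3.32%, 4.50% and 9.31% in E113Q, and what it takes lowers every other value of its library. The sequencing depth is unknown, since TPM keeps no read total, so no counting error can be given. As a check of the label, Vim (vimentin, the intermediate filament of mesenchymal cells) was at 4439, 4648 and 4443 TPM in E76Q and 5330.5, 5239.5 and 4487 TPM in E113Q. It was the highest of 18 mesenchymal markers, and not all of them were high. Eng (endoglin) was at 1.67, 2.3 and 1.36 TPM in E76Q, and Thy1, described below, was close to absent there. Of 10 defining markers of epithelial, endothelial, blood, muscle and neural cells the highest was the epithelial cadherin Cdh1, at up to 3.55 TPM in E113Q, and Myod1 and Sox10 were at 0 in the 6 libraries.

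E113Q and E76Q differed in the level of many genes. At an adjusted p below 0.05 in limma (a linear model with moderated variances, fitted to the 21 libraries, Benjamini-Hochberg adjustment over the 11923 genes), 1694 genes were called higher in E113Q (14.2%) and 1017 lower (8.53%), and 9212 were not called. Changes of at least 2-fold on the log2(TPM + 1) scale numbered 504 of those called higher and 462 of those called lower, and changes of at least 4-fold numbered 141 and 152. The 3 libraries of one group lay on the same side of the 3 of the other for 25% of genes upward and 21.3% downward, 46.3% in all. Without E113Q replicate 3 the test called 2418 genes higher (20.3%) and 958 lower (8.03%). The shares of all genes in the full fit and in this one are the background for the list counts below. The calls shared with the full set were 1591 higher and 862 lower, and none had the opposite sign. The share of calls that were upward, 62.5%, depended on the scaling: after a median-ratio rescaling of the libraries the calls were 2133 higher (17.9%) and 2314 lower (19.4%), and without Mir6236 they were 1927 and 2301. The median over genes shifted little, from 0.04 to -0.01 on the log2 scale after the rescaling.

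Both groups also differed from WT. Over all genes tested, 21.7% were called lower and 23% higher in E76Q than in WT, and 11.9% lower and 18.6% higher in E113Q. Of the 1694 genes higher in E113Q than in E76Q, 987 were called below WT and 98 above it in E76Q, and 638 were called above WT and 194 below it in E113Q. Among the 1017 lower genes, 686 were called above WT and 64 below it in E76Q, and 290 were called below WT and 151 above it in E113Q. A gene can be in both counts. Both sets of differences use the same WT libraries.

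Genes higher in E113Q were unevenly spread over the chromosomes. On chromosome 8, 312 of 661 genes tested were called higher in E113Q (47.2%) and 29 lower (4.39%), on chromosome 12 it was 152 higher and 12 lower of 399, and on chromosome 16 it was 112 higher and 11 lower of 382. These chromosomes held 12.1% of the genes tested and 34.0% of the genes called higher, 576 of 1694, and 474 of the 576 changed by less than 2-fold. The median log2 fold change was 0.47 on chromosome 8, 0.35 on chromosome 12 and 0.29 on chromosome 16, and between -0.16 and 0.10 on the other chromosomes. Chromosome 13 was at the lower end, with 86 of 483 genes called lower and 28 higher.

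The shift was seen in each library. Relative to the E76Q mean and to the median over all genes of the library, genes of chromosome 8 stood at 0.41, 0.41 and 0.45 in the 3 E113Q libraries and between -0.01 and 0.01 in the E76Q libraries. Genes of chromosome 12 stood at 0.33, 0.33 and 0.29 in E113Q, and those of chromosome 16 at 0.23, 0.28 and 0.24. So E113Q replicate 3, which differed from its mates in mitotic genes, did not differ from them here. An exact permutation test of 3 against 3 libraries cannot give a p below 0.1, which each of these chromosomes reached (two-sided, 0.182 after adjustment over 20 chromosomes). That p was reached by 11 of the 20 chromosomes, so it does not set these chromosomes apart. The shift ran along the whole of each chromosome: in windows of 20 Mb the median log2 fold change was 0.39 to 0.52 in 7 windows of chromosome 8, 0.27 to 0.40 in 6 windows of chromosome 12 and 0.21 to 0.37 in 5 windows of chromosome 16, whose smallest window held 18 genes.

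**Figure D1:**
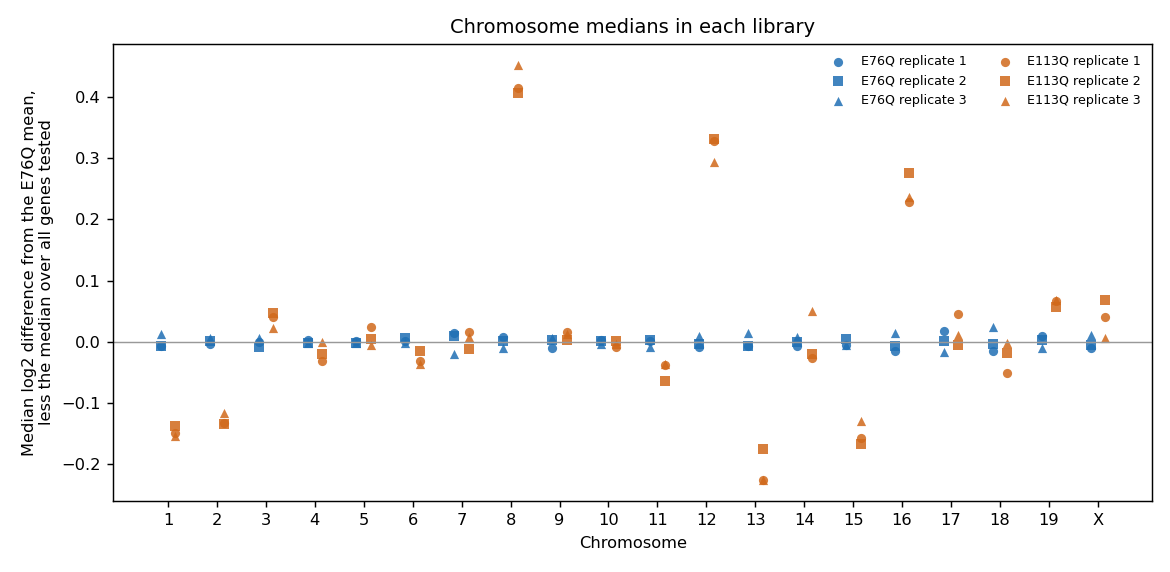
Median over the genes tested of each chromosome (horizontal axis) of the log2(TPM + 1) difference from the E76Q mean, less the library's median over all genes tested (vertical axis), for each of the 6 libraries. Points of E113Q lie above those of E76Q by about the same amount in the 3 libraries on chromosomes 8, 12 and 16 (0.23 to 0.45) and below them on chromosomes 1, 2, 13 and 15.

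Each group was also set against the WT libraries. Chromosome 8 differed from WT in both groups, upward in E113Q and downward in E76Q: it stood at 0.30, 0.28 and 0.31 in E113Q and at -0.10, -0.10 and -0.11 in E76Q. Chromosome 12 stood at 0.30, 0.31 and 0.26 in E113Q and between -0.02 and -0.01 in E76Q, and chromosome 16 between 0 and 0.03 in E113Q and at -0.22, -0.20 and -0.18 in E76Q. Chromosome 17 was low in both, at -0.41 to -0.36 in E113Q and -0.39 to -0.35 in E76Q, so it did not enter the difference. It was also below WT in each library of E71K, E71Q, E76K and E113K (-0.33 to -0.15). Chromosome 16 was below WT in E71K, E71Q and E76K too (-0.25 to -0.09) and above it in E113K (0.20 to 0.21). Whether the WT cultures were themselves shifted was not tested. DNA was not measured in these samples, and whether the number of chromosome copies differs between the cultures was not tested. When each library's chromosome medians were removed before the fit, an alternative chosen after the data were seen, 1339 genes were called higher (11.2%) and 894 lower (7.5%), of which 1197 and 830 were shared with the calls made without that step.

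The genes with the largest differences were mostly switched between near absence and clear expression. Thy1, a surface glycoprotein used as a marker of mesenchymal cells, was at 0.45, 0.622 and 0.344 TPM in E76Q and 77.2, 71 and 134 TPM in E113Q. Arl6ip1, a membrane protein of the endoplasmic reticulum, was at 1.13, 1.42 and 1.57 TPM in E76Q and 164, 175 and 91.8 TPM in E113Q. Both were close to absent in each E76Q library and high in each E113Q library (Thy1: log2 fold change 5.96 ± 0.19 (SE), adjusted p = 3.35e-13). Anpep, a surface aminopeptidase, was at 0.269, 0.266 and 0.235 TPM in E76Q and 65.5, 65 and 43.8 TPM in E113Q. Cdo1, the enzyme that oxidises cysteine, was at 0.209, 0.481 and 0.399 TPM in E76Q and 48.5, 51.6 and 26.1 TPM in E113Q. E113Q replicate 3 was the lowest of its group for Arl6ip1, Anpep and Cdo1 and the highest for Thy1, yet well above every E76Q library.

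Other genes of this kind included a secreted growth regulator and several enzymes. Nov (CCN3), a matricellular protein that binds integrins, was already expressed in E76Q and was at 29.7, 30.9 and 31.8 TPM in E76Q and 1230.5, 1244 and 533 TPM in E113Q, log2 fold change 4.88 ± 0.28 (SE), adjusted p = 3.64e-10. Ptgis, the prostacyclin synthase, was at 0.178, 0.137 and 0.272 TPM in E76Q and 26.4, 28.7 and 26.5 TPM in E113Q, and its E113Q libraries lay within a narrow range. Renbp, an enzyme of amino sugar metabolism, was at 2.14, 1.93 and 0.875 TPM in E76Q and 60.2, 62 and 91.3 TPM in E113Q. Gxylt2, a xylosyltransferase that extends sugars on Notch, and Hdac11, a histone deacetylase, complete the list with log2 fold changes of 4.69 ± 0.23 (SE) and 4.88 ± 0.51 (SE). Gm5886 is a predicted gene, and its 248, 297 and 1578 TPM in E113Q were set mainly by replicate 3 (log2 fold change 4.80, and 3.95 without it). Hebp2, a haem-binding protein, and Perp, a p53 target of cell junctions, lie close together on chromosome 10. Perp was listed at 0 in each E76Q library and was at 29.4, 28.1 and 26.8 TPM in E113Q (adjusted p = 2.53e-13). For Hebp2 the E76Q libraries were at 0, 0 and 0.0616 TPM and the E113Q libraries at 45.7, 43.4 and 22.5 TPM.

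Genes of the opposite kind were expressed in E76Q and low or absent in E113Q. Col9a1, a chain of cartilage collagen IX, was at 246, 267 and 247 TPM in E76Q and 0.752, 0.876 and 3.91 TPM in E113Q (log2 fold change -6.65 ± 0.52 (SE), adjusted p = 2.42e-08). Slpi, a secreted protease inhibitor, was at 1162, 1113 and 928 TPM in E76Q and 22, 25.4 and 18.5 TPM in E113Q. Of the largest falls it was the one with the highest starting level. Hoxc9, a homeobox gene of the posterior trunk, was at 24, 27 and 23.7 TPM in E76Q and listed at 0 in each E113Q library (adjusted p = 1.13e-13). Scg2, a granin of secretory granules, was at 26.5, 27.2 and 27.5 TPM in E76Q and 0.127, 0.131 and 0.366 TPM in E113Q. Rap1gap, which switches off the GTPase Rap1, was at 47.6, 36.2 and 36.9 TPM in E76Q and 0.495, 0.0931 and 0.0867 TPM in E113Q, and Tspan7, a tetraspanin, at 23.9, 24.3 and 25.4 TPM in E76Q and 0.263, 0.182 and 0.113 TPM in E113Q. For each of these genes, libraries without overlap between the groups were a condition of the choice. Akr1c13, an aldo-keto reductase, had a log2 fold change of -4.48 ± 0.17 (SE), but has near-identical neighbours between which reads can be split. 1700019B21Rik, a gene of unknown function, was at 27.9, 32.8 and 31.7 TPM in E76Q and 0, 0 and 0.249 TPM in E113Q. Mir6950 and Mir8109 are microRNA hairpins that lie inside the genes Loxl2 and Neto2, so that reads of the host RNA can be counted for them. They were at 34, 26.1 and 26 and 27, 20.8 and 20.7 TPM in E76Q and listed at 0 in E113Q.

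**Figure D2:**
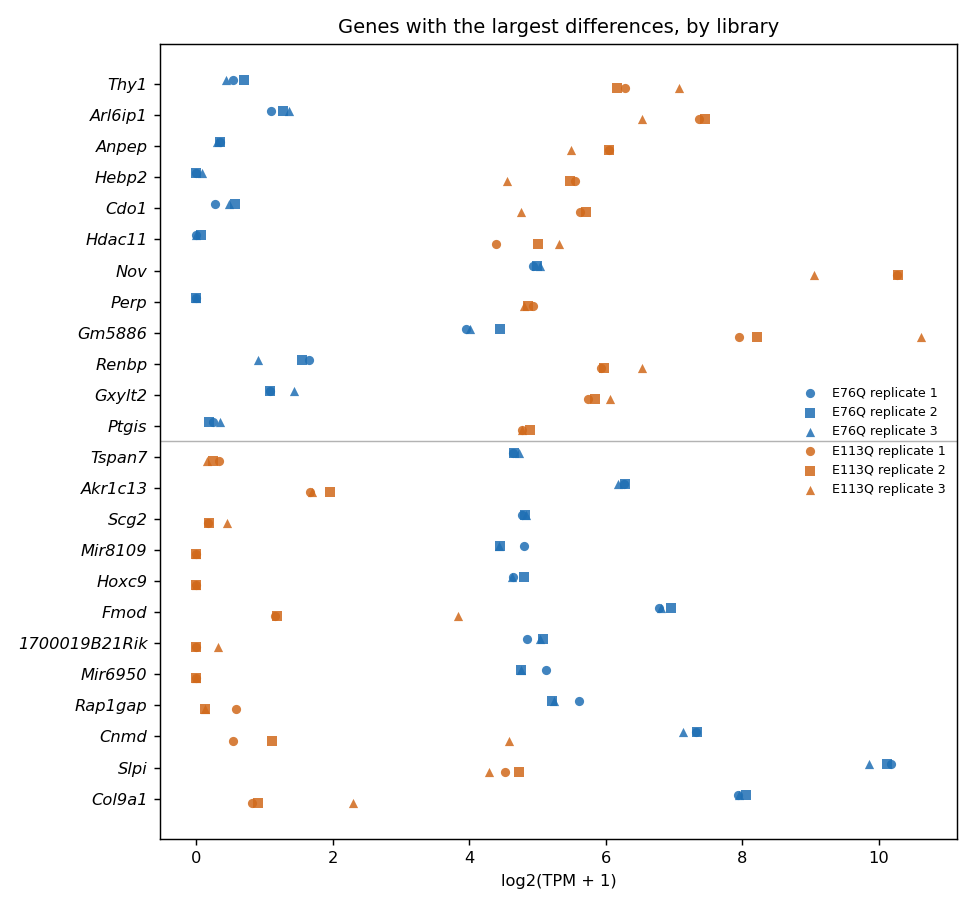
Level of the 24 genes with the largest called differences in each library, as log2(TPM + 1) on the horizontal axis, 12 higher in E113Q above the line and 12 lower below it. The E113Q and E76Q libraries do not overlap for any of the genes, a condition of their choice, and E113Q replicate 3 lies away from its mates for Fmod, Cnmd and Gm5886.

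Several of the genes near absence in E76Q were also near absence in the groups changed at residue 71. Thy1 was at 66 ± 0.461 TPM in WT (SD, n = 3, as for the means that follow), 106 ± 4.23 TPM in E76K and 61.4 ± 1.26 TPM in E113K, but at 0.0791 ± 0.0943 TPM in E71K and 0.963 ± 0.471 TPM in E71Q. Arl6ip1 had 169 ± 1.07 TPM in WT, 139 ± 27.5 TPM in E76K, 119 ± 5.42 TPM in E113K, 0.913 ± 0.021 TPM in E71K and 1.06 ± 0.419 TPM in E71Q. The same order, WT and both E113 groups high, both residue 71 groups and E76Q low, was seen for Anpep, Renbp and Grem1, with E76K on the high side. Perp went the other way: it was at 28.1 ± 1.33 TPM in E113Q and at most 0.478 in the mean of any other group, that of WT. Among the genes lower in E113Q, Fmod, Cnmd and Col9a1 had higher means in E71K, E71Q and E76Q than in E76K, E113K and E113Q (Fmod 36.9, 45.1 and 115 TPM against 4.31, 0.14 and 5.27 TPM). No test was made of these orders.

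**Figure D3:**
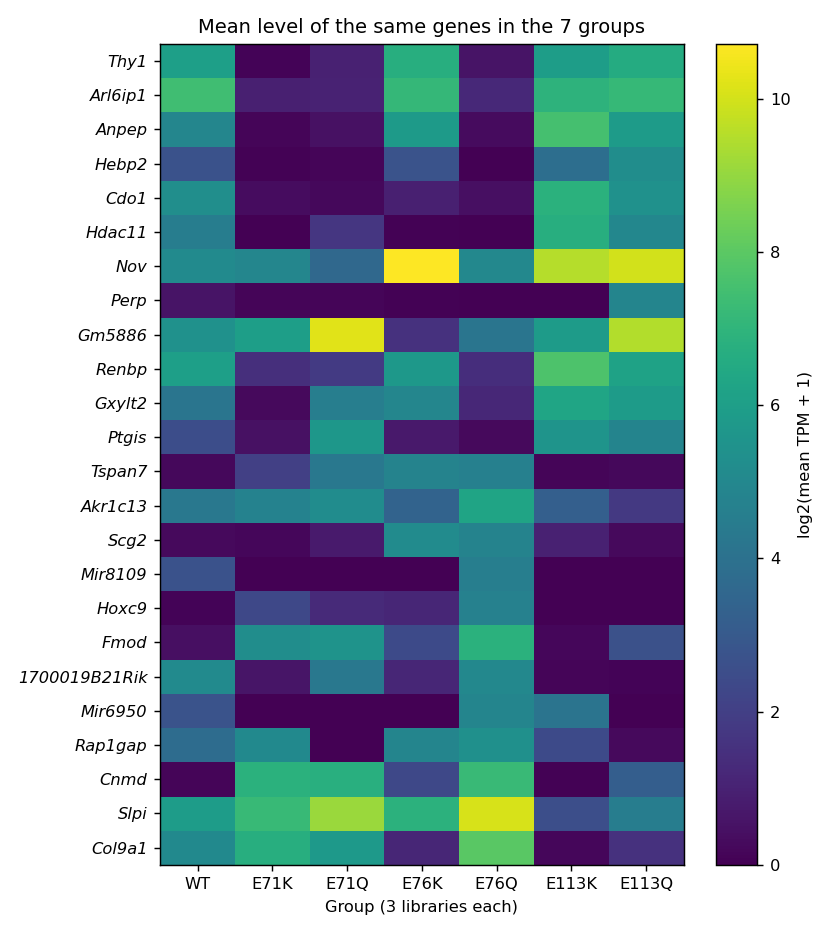
Mean level of the same 24 genes in the 7 groups, as log2(mean TPM + 1) of 3 libraries (colour), with the groups on the horizontal axis. Dark cells are low levels: Thy1, Arl6ip1, Anpep and Renbp are low in E71K, E71Q and E76Q, whereas Perp is low in each group but E113Q.

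Among abundant genes the differences were smaller folds of larger amounts. Fn1, fibronectin of the cell matrix, was at 2090.2, 2323 and 2717 TPM in E76Q and 695, 667 and 1075 TPM in E113Q (log2 fold change -1.57 ± 0.36 (SE), adjusted p = 0.00354). Cxcl12, a chemokine made by stromal cells, was at 2636, 2779 and 2728 TPM in E76Q and 928, 942 and 843 TPM in E113Q. Sparc, a collagen-binding matrix protein, was at 2198, 2262 and 2149.5 TPM in E76Q and 1176, 1179 and 1427 TPM in E113Q. These 3 genes were lower in each E113Q library than in any E76Q library, a condition of their choice. Dtx3, a ubiquitin ligase, and Gm20594, a predicted gene, were lower at log2 fold changes of -1.09 ± 0.32 (SE) and -0.98 ± 0.26 (SE) and lost the call when single libraries were left out, for example E113Q replicate 1 (adjusted p = 0.0673 and 0.0608). Upward, Lgals1, a galactose-binding lectin, was at 2707, 2687 and 2314 TPM in E76Q and 4460.5, 4209.6 and 3518 TPM in E113Q. S100a4, a calcium-binding protein of mesenchymal cells, was at 3425, 3414 and 2868 TPM in E76Q and 5646, 5734 and 3580.4 TPM in E113Q, and its call was lost after the median-ratio rescaling (adjusted p = 0.0734). Translation genes were among the largest gains in TPM, with Rps12 at 3911, 3815 and 3509 TPM in E76Q and 6994, 6323 and 6126 TPM in E113Q. Eef1a1, the elongation factor that delivers transfer RNAs, was at 6422, 6510.4 and 6095 TPM in E76Q and 8987, 9068 and 8056 TPM in E113Q, and Rplp1 at 6738, 6427 and 5439.6 TPM in E76Q and 8293, 8143 and 8209 TPM in E113Q. The call of Rplp1 was lost after the median-ratio rescaling (adjusted p = 0.0688) and without E113Q replicate 1 (0.08) or 2 (0.0696). That of Eef1a1 was lost when the genes were not filtered (adjusted p = 0.0793). Under quantile normalization both calls were also lost, with a difference of 0.0 for each. That method gives equal values to genes of equal rank, so this loss was set by the method.

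Cartilage genes were lower in E113Q. Of 18 tested genes of the chondrocyte list, 10 were called lower and 1 higher (medians of the list -1.78, of all genes 0.04), and without E113Q replicate 3 it was 14 lower and 0 higher. Col2a1, the main cartilage collagen, was at 436, 478 and 458 TPM in E76Q and 111, 100.3 and 161 TPM in E113Q (log2 fold change -1.90 ± 0.29 (SE), adjusted p = 9.82e-05). Cnmd, chondromodulin, was at 159.9, 161 and 139.6 TPM in E76Q and 0.447, 1.16 and 22.9 TPM in E113Q. Chadl, a leucine-rich cartilage protein, was at 45.5, 51.7 and 51.1 TPM in E76Q and 0.501, 0.486 and 5.34 TPM in E113Q. In each of these the E113Q libraries were low and replicate 3 was the least so. Sox5 and Sox6, partners of Sox9 in cartilage transcription, had log2 fold changes of -2.01 ± 0.19 (SE) and -2.36 ± 0.32 (SE). Fgfr3, a receptor that restrains growth plate cartilage, was at 12.8, 14.1 and 12.3 TPM in E76Q and 0.674, 0.859 and 1.28 TPM in E113Q, and Scrg1, a small secreted protein of cartilage, at 96.6, 92 and 80.8 TPM in E76Q and 3.86, 1.54 and 13.3 TPM in E113Q. Sox9 itself, the master regulator of the lineage, was at 151, 167 and 162 TPM in E76Q and 103, 104 and 147 TPM in E113Q. It was not called (adjusted p = 0.129). Without E113Q replicate 3 it was called lower (log2 fold change -0.62, adjusted p = 0.0427). With that library kept, it was also called lower after the median-ratio rescaling (adjusted p = 0.0242) and without Mir6236 (0.0255). Ucma, a small cartilage matrix protein, had 18.5, 22.5 and 19.1 TPM in E76Q, and 1.18 and 0.812 TPM against 112 TPM in E113Q. Matn4, a matrilin and the gene called higher, was at 1.57, 1.7 and 1.59 TPM in E76Q and 4.59, 5.69 and 23.2 TPM in E113Q. For both, replicate 3 was far above its mates. Against WT the list had a median log2 difference of 2.94 in E76Q and 0.90 in E113Q.

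Other matrix genes were lower as well. Of 23 matricellular genes 13 were called lower and 4 higher (median -0.88), and 12 and 5 without replicate 3. Thbs1, thrombospondin 1, was at 81.4, 95.1 and 104 TPM in E76Q and 18.1, 18.1 and 17.3 TPM in E113Q. Smoc2, a SPARC relative, was at 94.6, 105 and 97.7 TPM in E76Q and 18, 23.5 and 6.92 TPM in E113Q. Has2, the synthase of hyaluronan, was at 28.8, 34.2 and 34.2 TPM in E76Q and 8.01, 8.98 and 10.6 TPM in E113Q. The groups were far apart in these genes. Cyr61, a CCN protein and target of YAP, was at 225, 287 and 269.9 TPM in E76Q and 37.1, 33.6 and 135 TPM in E113Q, and lost the call without E113Q replicate 1 (adjusted p = 0.0807). Called higher beside Nov were Tnfaip6, which binds hyaluronan (log2 fold change 2.30 ± 0.29 (SE)), Tgfbi (0.93 ± 0.21 (SE)) and Spon2 (0.60 ± 0.13 (SE)). Of the small proteoglycans, Fmod, which regulates collagen fibrils, was at 109, 123 and 112 TPM in E76Q and 1.23, 1.27 and 13.3 TPM in E113Q, and Prelp at 277, 308 and 291 TPM in E76Q and 117, 116 and 122 TPM in E113Q.

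Collagens moved in both directions. Of 17 tested, 4 were called higher and 4 lower (all genes 14.2% and 8.53%), and 3 and 8 without E113Q replicate 3 (all genes 20.3% and 8.03%). Col1a1, the main chain of bone and skin collagen, was at 1218, 1324 and 1326 TPM in E76Q and 2021, 1866 and 1686 TPM in E113Q (log2 fold change 0.52 ± 0.12 (SE), adjusted p = 0.00479). Col12a1, which decorates fibrils, was at 9.44, 10.1 and 12.5 TPM in E76Q and 37.3, 33.8 and 21.9 TPM in E113Q, and Col18a1, of basement membranes, at 5.3, 5.24 and 5.14 TPM in E76Q and 13.3, 12.9 and 11.7 TPM in E113Q. These were higher in each E113Q library. Col16a1 was lower, at 107, 99.8 and 91.9 TPM in E76Q and 48, 50 and 51.9 TPM in E113Q. Col5a1 and Col5a2, which nucleate fibrils, were lower at log2 fold changes of -0.77 and -0.80 and lost the call without E113Q replicate 1 (adjusted p = 0.0751 and 0.102). Enzymes that cut matrix were also divided: Adamts1, a metalloproteinase, was at 42.4, 47.5 and 45.6 TPM in E76Q and 199, 207 and 111 TPM in E113Q, Mmp16 at 20, 22.2 and 22.3 TPM in E76Q and 106, 115 and 55.5 TPM in E113Q, and Mmp19 was at 37.2, 39.7 and 35.8 TPM in E76Q and 4.41, 5.09 and 6.25 TPM in E113Q. Of 20 metalloproteinases and inhibitors 5 were called higher and 7 lower (all genes 14.2% and 8.53%), 8 and 7 without replicate 3 (all genes 20.3% and 8.03%).

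Most BMP signalling genes that were called were lower in E113Q. Of 19 tested genes of the list 11 were called lower and 2 higher (median -0.61), and 8 and 2 without E113Q replicate 3. Bmp4, a ligand that drives mesenchymal cells to bone and cartilage, was at 69.6, 74.2 and 70.8 TPM in E76Q and 30.6, 26.4 and 17.3 TPM in E113Q. Among the targets of the pathway, Id4, an inhibitor of helix-loop-helix factors, was at 20.8, 20.4 and 19.4 TPM in E76Q and 0.569, 0.688 and 0.427 TPM in E113Q. Atoh8, another target, was at 58.3, 65.8 and 56.9 TPM in E76Q and 24.2, 21.1 and 20.5 TPM in E113Q. E113Q libraries were lower than E76Q libraries in all 3 genes. Id1 and Id3 were lower at log2 fold changes of -0.70 ± 0.17 (SE) and -0.46 ± 0.14 (SE). Id2 was at 67.8, 68 and 72.2 TPM in E76Q and 83.6, 86.7 and 45.3 TPM in E113Q, and was not called (adjusted p = 0.99). The feedback inhibitors Smad6 and Smad7 were lower at log2 fold changes of -1.02 and -0.77, and Bambi, a decoy receptor, was at 13.6, 13 and 13.4 TPM in E76Q and 0.698, 0.492 and 1.11 TPM in E113Q. Of the secreted antagonists, Grem1, gremlin, was at 2.31, 2.66 and 3.53 TPM in E76Q and 78.1, 73.8 and 17.1 TPM in E113Q (log2 fold change 3.64 ± 0.39 (SE), adjusted p = 1.47e-06), and Chrd, chordin, at 0.133, 0.238 and 0.169 TPM in E76Q and 5.12, 5.6 and 4.22 TPM in E113Q. Both were higher in E113Q, and Chrdl1, a chordin relative, was lower (log2 fold change -1.60 ± 0.18 (SE)). Grem1 in E113Q replicate 3 was below its mates but above the E76Q libraries.

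Wnt genes changed member by member. Rspo3, a secreted enhancer of Wnt signalling, was at 0.56, 0.67 and 0.619 TPM in E76Q and 30, 32.3 and 41.1 TPM in E113Q (log2 fold change 4.44 ± 0.15 (SE), adjusted p = 4.96e-13), while its receptor Lgr4 was at 177, 198 and 201 TPM in E76Q and 38, 39 and 50 TPM in E113Q. The nuclear factors of the pathway went opposite ways, with Tcf7 at 0, 0.0609 and 0 TPM in E76Q and 3.18, 13.3 and 25.3 TPM in E113Q and Lef1 at 4.28, 5.45 and 4.58 TPM in E76Q and 0.668, 0.582 and 0.586 TPM in E113Q. The E113Q values of Tcf7 differed widely from each other. Wif1, a secreted inhibitor, was at 8.79, 10.1 and 8.76 TPM in E76Q and 0.107, 0 and 0 TPM in E113Q. In all, 4 of 18 genes were called higher and 5 lower (all genes 14.2% and 8.53%).

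FGF, Hedgehog and TGF-beta genes included some of the larger changes of receptors. Fgfr2 was at 16.3, 21.2 and 18.4 TPM in E76Q and 0.115, 0.684 and 0.252 TPM in E113Q. Fgfr1, a receptor of the same family on chromosome 8, was at 124, 124 and 119 TPM in E76Q and 185, 171 and 167 TPM in E113Q. Fgfr1 was thus higher in E113Q, while Fgfr2 and Fgfr3 were nearly absent there. Etv1, Etv5 and Dusp4, read as targets of the pathway, were higher at log2 fold changes of 1.74 ± 0.18 (SE), 1.43 ± 0.22 (SE) and 1.53 ± 0.35 (SE), while Spry1, a feedback inhibitor, was lower at a log2 fold change of -1.78 ± 0.23 (SE). The FGF list had 5 of 16 genes called higher and 4 lower (all genes 14.2% and 8.53%). Of the 5 higher genes 4 lie on chromosomes 8, 12 and 16. Ptch1, the receptor and target of Hedgehog, was at 43.1, 45.5 and 46.5 TPM in E76Q and 10.5, 9.46 and 7.86 TPM in E113Q, and the co-receptors Boc and Cdon were lower at log2 fold changes of -1.73 ± 0.36 (SE) and -2.19 ± 0.29 (SE). Of 20 TGF-beta genes 7 were called lower and 2 higher (all genes 8.53% and 14.2%), 5 and 2 without E113Q replicate 3 (all genes 8.03% and 20.3%). The receptor Tgfbr2 was higher, at 23.4, 25.5 and 26 TPM in E76Q and 56.7, 61.8 and 68.9 TPM in E113Q.

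Contractile genes were lower in the main. Of 14 smooth muscle genes 8 were called lower and 2 higher (median -0.44), and 5 and 2 without replicate 3. Acta2, smooth muscle actin, was at 479.8, 513 and 582 TPM in E76Q and 179, 169.6 and 175 TPM in E113Q (log2 fold change -1.58 ± 0.15 (SE), adjusted p = 4.10e-07). Actg2, the enteric actin, was at 38.2, 38.7 and 39.2 TPM in E76Q and 1.86, 1.17 and 1.37 TPM in E113Q. Des, desmin, was at 8.59, 7.66 and 7.01 TPM in E76Q and 0.998, 1.82 and 0.763 TPM in E113Q. The 3 genes were low in each E113Q library. Mylk, the kinase of myosin light chains, was lower at a log2 fold change of -1.50 ± 0.33 (SE). Myl9 and Tpm2 were higher, Myl9 at 0.16, 0.123 and 0 TPM in E76Q and 4.65, 4.32 and 1.55 TPM in E113Q and Tpm2 at 50.4, 50.2 and 49.9 TPM in E76Q and 113.1, 117 and 79.6 TPM in E113Q. Tagln, the classical marker transgelin, was low in both groups, at 1.44, 1.39 and 1.16 TPM in E76Q and 2.52, 1.99 and 0.906 TPM in E113Q, and was not called.

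Genes of fat cells leaned upward. Of 15 tested, 6 were called higher and 2 lower, with replicate 3 (all genes 14.2% and 8.53%) or without it (all genes 20.3% and 8.03%). Pparg, the nuclear receptor that drives fat differentiation, was at 12.5, 12.7 and 13.6 TPM in E76Q and 38.6, 42.3 and 28.3 TPM in E113Q (log2 fold change 1.4 ± 0.12 (SE), adjusted p = 6.08e-08). Fabp4, a fatty acid carrier of fat cells, was at 1.02, 0.262 and 0.261 TPM in E76Q and 6.83, 6.01 and 1.32 TPM in E113Q, and its neighbour Fabp5 at 37.6, 37.7 and 37.1 TPM in E76Q and 88.8, 90.2 and 77.9 TPM in E113Q. Fabp4 was low in the E76Q libraries and in E113Q replicate 3. Pnpla2, the first lipase of stored fat, was higher at a log2 fold change of 0.99 ± 0.11 (SE) and Zfp423, a factor of fat precursors, at one of 1.57 ± 0.23 (SE). Cebpb and Ebf1, factors that act early in the lineage, were lower at log2 fold changes of -0.84 ± 0.14 (SE) and -1.33 ± 0.30 (SE). Plin2, which coats lipid droplets, was at 218, 217 and 204 TPM in E76Q and 242, 268 and 266 TPM in E113Q and was not called.

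Genes of prostaglandin and peptide signalling were mostly higher. Of 9 tested genes 6 were called higher and 1 lower (median 0.95), and 7 and 1 without replicate 3. Beside Ptgis, which makes prostacyclin, the cyclooxygenases that supply its substrate were higher, with Ptgs2 at 3.59, 3.98 and 4.35 TPM in E76Q and 13.6, 15.2 and 7.45 TPM in E113Q and Ptgs1 at 29.9, 28.6 and 30.1 TPM in E76Q and 47.9, 52.1 and 32.5 TPM in E113Q. The prostaglandin E receptor Ptger1, on chromosome 8, was at 12.6, 15.3 and 15.2 TPM in E76Q and 34.1, 30.3 and 24.3 TPM in E113Q, and lost the call when chromosome medians were removed (adjusted p = 0.098). Calcrl, a receptor of adrenomedullin, was at 2.42, 2.39 and 2.63 TPM in E76Q and 23.7, 29.2 and 9.34 TPM in E113Q, and Adm, its ligand, at 7.13, 6.99 and 6.75 TPM in E76Q and 12.2, 14.3 and 17.2 TPM in E113Q. Ligand and receptor were thus higher together, Calcrl least in replicate 3. Npr3, which clears natriuretic peptides, was lower, at 17.2, 19.7 and 18.3 TPM in E76Q and 7.75, 7.54 and 2.11 TPM in E113Q.

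Adhesion and guidance molecules differed in both directions. Of 25 adhesion genes 11 were called higher and 3 lower, 10 and 3 without replicate 3. Of 22 guidance genes 10 were higher and 5 lower, 8 and 5 without it. Over all genes 14.2% were called higher and 8.53% lower, 20.3% and 8.03% without it. Lgals3, galectin 3, was at 82.7, 83.9 and 74.7 TPM in E76Q and 519.5, 467 and 524 TPM in E113Q. Alcam, an immunoglobulin adhesion molecule, was at 14.5, 15 and 15.6 TPM in E76Q and 56.4, 59.2 and 30.2 TPM in E113Q. L1cam, another, was lower, at 68.3, 72.1 and 74.3 TPM in E76Q and 13, 14.5 and 13 TPM in E113Q, as was the collagen receptor Itga1, at 12.4, 12.3 and 13.2 TPM in E76Q and 1.41, 0.992 and 1.12 TPM in E113Q. Alcam and L1cam, of the same superfamily, thus differed in opposite directions. Of the guidance cues, Sema3a was at 0.932, 0.903 and 0.976 TPM in E76Q and 24.7, 23.9 and 10.6 TPM in E113Q, Ntn1, netrin 1, at 0.463, 0.562 and 0.522 TPM in E76Q and 11.8, 10.2 and 6.44 TPM in E113Q and Efnb2, ephrin B2, at 1.48, 1.69 and 1.18 TPM in E76Q and 20, 18.1 and 9.95 TPM in E113Q. Slit2 was higher at a log2 fold change of 2.23 ± 0.22 (SE). Sema6a was lower, at 4.04, 4.48 and 4.88 TPM in E76Q and 0.199, 0.206 and 0.0663 TPM in E113Q. The co-receptors of semaphorins differed in sign, with Nrp1 higher at a log2 fold change of 0.57 ± 0.16 (SE) and Nrp2 lower at a log2 fold change of -1.08 ± 0.17 (SE).

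Patterning factors and retinoid genes also differed in both directions. Of 32 patterning factors 9 were called higher and 5 lower (all genes 14.2% and 8.53%), 13 and 4 without replicate 3 (all genes 20.3% and 8.03%). Pax3, a factor of somites and neural crest, was at 0.0428, 0.0329 and 0.0328 TPM in E76Q and 4.53, 5.2 and 3.63 TPM in E113Q. Foxc2 and Foxf1, neighbours on chromosome 8, were higher at log2 fold changes of 1.25 ± 0.13 (SE) and 1.25 ± 0.12 (SE), while Foxd1 and Foxf2 on chromosome 13 were lower at log2 fold changes of -1.66 ± 0.16 (SE) and -1.36 ± 0.21 (SE). Hoxc6 followed Hoxc9 down, at 7.33, 7.12 and 7.59 TPM in E76Q and 0.399, 0.929 and 0.132 TPM in E113Q, and Hoxa4 and Hoxa5 were higher at log2 fold changes of 0.73 and 0.63, calls that were lost without E113Q replicate 1 (adjusted p = 0.0658 and 0.0796). Crabp2, which carries retinoic acid to its receptor, was at 0.616, 0.631 and 0.471 TPM in E76Q and 26.1, 27 and 25.1 TPM in E113Q, and Dhrs3, which reduces retinal, at 61.9, 61 and 53.8 TPM in E76Q and 1.21, 2.12 and 2.81 TPM in E113Q. Notch3 was at 0.0348, 0.0534 and 0.0532 TPM in E76Q and 8.45, 8.38 and 3.15 TPM in E113Q. Each of these last genes was close to absent in one group.

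Genes of the amino acid response were higher in E113Q than in E76Q. This response, run by the factor ATF4, raises amino acid transporters, the serine pathway and transfer RNA synthetases when amino acids are short or the endoplasmic reticulum is stressed. Of 29 tested genes 15 were called higher and 2 lower (median 0.52), and 15 and 1 without E113Q replicate 3. The median level of the list relative to E76Q was 0.56, 0.55 and 0.51 in the 3 E113Q libraries. Against WT the list had a median log2 difference of -0.67 in E76Q and 0.06 in E113Q, so E76Q was the group further from WT. In the serine pathway, Phgdh was at 132, 128 and 127 TPM in E76Q and 225, 208 and 232 TPM in E113Q. Psat1 was at 72.3, 70.2 and 67.6 TPM in E76Q and 233, 223 and 188 TPM in E113Q, and Psph at 17.5, 19.1 and 18.3 TPM in E76Q and 30.5, 32.5 and 31.2 TPM in E113Q. These 3 consecutive enzymes were higher in each E113Q library. Shmt2 and Aldh1l2, which pass the carbon on through folate, were higher at log2 fold changes of 0.98 ± 0.24 (SE) and 1.08 ± 0.21 (SE). The transporter Slc7a11, which imports cystine, was at 2.59, 2.63 and 2.76 TPM in E76Q and 5.11, 5.55 and 3.8 TPM in E113Q, and Slc7a5, for large neutral amino acids, at 59, 57.3 and 78.5 TPM in E76Q and 239, 155 and 154 TPM in E113Q. Slc7a5 lies on chromosome 8 and lost the call when chromosome medians were removed (adjusted p = 0.0777). The synthetases Wars and Sars were higher at log2 fold changes of 1.02 ± 0.14 (SE) and 0.59 ± 0.11 (SE). Atf3, a factor induced by ATF4, was at 0.646, 0.595 and 0.757 TPM in E76Q and 7.35, 7.55 and 7.67 TPM in E113Q. Atf4 RNA itself was at 377, 376 and 364 TPM in E76Q and 371, 375 and 365 TPM in E113Q and was not called, and neither were its targets Asns (146, 158 and 151 TPM in E76Q and 183, 178 and 149 TPM in E113Q), Trib3 (45.5, 49.2 and 44.7 TPM in E76Q and 49.7, 49.4 and 60.6 TPM in E113Q) or Ddit3 (235, 226 and 217 TPM in E76Q and 228, 233 and 224 TPM in E113Q). Cebpb was lower. So the serine enzymes and Atf3 differed while other well-known members of the list did not pass the test.

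The promoters of some of these genes hold the sequence TGATGNAA, the core of the composite site to which ATF4 binds with a C/EBP partner. In the 250 bases before the RefSeq start (GRCm38.p6), searched on both strands, it was found in 7 of the 24 tested members with a promoter entry (29.2%), against 2.36% of 9327 tested genes. Of the 10 called higher among the 24 it was found in 4, namely Atf3, Slc7a11, Vldlr and Nupr1, and it was also found in Asns, Chac1 and Gars, which were not called. The sequences are shown 5′ to 3′ on the strand of the gene, with the match in capitals (TTGCATCA is a match on the opposite strand), for the 4 genes called higher and for Asns as one that was not:
Atf3 (chr1:191183406-191183473, minus strand): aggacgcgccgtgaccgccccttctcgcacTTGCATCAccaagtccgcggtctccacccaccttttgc
Slc7a11 (chr3:50443642-50443709, minus strand): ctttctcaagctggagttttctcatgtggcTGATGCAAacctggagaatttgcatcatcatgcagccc
Vldlr (chr19:27216790-27216857, plus strand): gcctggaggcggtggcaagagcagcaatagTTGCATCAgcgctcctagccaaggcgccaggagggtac
Nupr1 (chr7:126625543-126625610, minus strand): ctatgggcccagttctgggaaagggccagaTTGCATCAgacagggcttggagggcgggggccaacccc
Asns (chr6:7693210-7693262, minus strand): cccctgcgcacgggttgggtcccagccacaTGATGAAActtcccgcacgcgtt
Slc7a11 holds a second match, in lower case here, on the opposite strand. Vldlr, a lipoprotein receptor, was at 0.235, 0.28 and 0.192 TPM in E76Q and 8.47, 8.41 and 11.6 TPM in E113Q, and Nupr1, a stress-induced chromatin protein, at 119, 127 and 102 TPM in E76Q and 209, 208 and 245 TPM in E113Q. The match is a description of the sequence, and it was found in called and uncalled members. The list was made up in part of targets of ATF4, so its share above that of all genes was partly set by the choice.

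Of the respiratory chain genes 22 of 51 were called lower, by small amounts and beside 8.53% of all genes, and ribosomal protein genes were called higher at about the share of all genes (14.2%). Of 79 ribosomal protein genes 15 were called higher and 0 lower (median 0.19), 16 and 0 without E113Q replicate 3, and 71 had a positive difference, against 6525 of the 11923 genes tested. Of the 15, 6 lie on chromosomes 8, 12 and 16, and with the chromosome medians removed 10 were called higher, where 11.2% of all genes were. Of 51 respiratory chain genes 22 were called lower and 1 higher (median -0.38), 16 and 1 without E113Q replicate 3, and 47 had a negative difference, against 5398 of all genes tested. Atp5g3, a subunit of the ATP synthase ring, was at 1269, 1227 and 1153 TPM in E76Q and 654, 657 and 744 TPM in E113Q. Cox6c, of cytochrome oxidase, was at 1719.8, 1578 and 1516 TPM in E76Q and 965, 985 and 979 TPM in E113Q, and Cycs, cytochrome c, at 128, 125 and 116 TPM in E76Q and 74.9, 77.6 and 74.1 TPM in E113Q. Each E113Q library was below each E76Q library in these. The exception was Ndufs8, at 91.5, 96.6 and 85.5 TPM in E76Q and 145, 136 and 147 TPM in E113Q. Against WT the respiratory chain list had a median log2 difference of 0.39 in E76Q and -0.03 in E113Q. The count of lower respiratory chain genes was 41 after the median-ratio rescaling, where 19.4% of all genes were called lower. It was 12 with the chromosome medians removed, where 7.5% of all genes were. The sign of the median did not change under the rescaling (-0.44). Ribosomal protein genes have many processed copies in the genome, between which reads can be split.

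Some genes of sugar metabolism differed, as did genes of metal-binding proteins. Of 28 genes of glycolysis and the response to low oxygen 4 were called higher and 7 lower (all genes 14.2% and 8.53%). Without E113Q replicate 3 it was 3 and 6 (all genes 20.3% and 8.03%). The count upward was about the share of all genes. Slc2a1, the glucose transporter, was at 40.2, 42.4 and 38 TPM in E76Q and 18.6, 18.8 and 18.8 TPM in E113Q, and Pfkm, a phosphofructokinase, at 151, 155 and 145 TPM in E76Q and 62.1, 66.1 and 78.6 TPM in E113Q. Ndrg1 was higher, at 41.7, 45.6 and 41.2 TPM in E76Q and 109.6, 111 and 122 TPM in E113Q. The metallothioneins Mt1 and Mt2, metal-binding proteins encoded side by side on chromosome 8, were at 252, 241 and 213 TPM in E76Q and 599, 612 and 1067 TPM in E113Q and at 53.6, 43.8 and 48.7 TPM in E76Q and 486, 440.3 and 430.0 TPM in E113Q. Mt2 was far above the shift of the chromosome as a whole.

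Protein quality genes called higher lay mostly on the shifted chromosomes. Of 31 proteasome genes 6 were called higher and 0 lower (all genes 14.2% and 8.53%), and 5 of the 6 lie on chromosomes 8, 12 and 16. Psmd7, a lid subunit on chromosome 8, was at 141, 139 and 143 TPM in E76Q and 205, 200.2 and 198 TPM in E113Q, and was not called with the chromosome medians removed (adjusted p = 0.712). Of 28 unfolded protein and heat shock genes 8 were called higher and 0 lower, 6 of them on the same chromosomes. With the chromosome medians removed, 1 proteasome gene and 2 unfolded protein genes were called higher, where 11.2% of all genes were. Hspb1, a small heat shock protein on chromosome 5, was at 0, 0 and 0.156 TPM in E76Q and 3.48, 3.18 and 3.16 TPM in E113Q.

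Cell cycle genes divided the E113Q libraries. Of 38 genes of mitosis 1 was called higher, Kif23, at 17.6, 26.5 and 24.2 TPM in E76Q and 69.9, 71 and 23.2 TPM in E113Q, with replicate 3 inside the E76Q range, which lost the call without E113Q replicate 1 (adjusted p = 0.173). Without E113Q replicate 3 it was 38 of 38, with a median of 1.4 in place of 0.78. Mki67, a marker of cycling cells, was at 20.8, 21.8 and 24.3 TPM in E76Q and 48.9, 45.7 and 13 TPM in E113Q. It was not called (adjusted p = 0.397), and was called higher without replicate 3 (log2 fold change 1.06, adjusted p = 0.00357). Replicates 1 and 2 were above the E76Q libraries and replicate 3 below them. In the list of replication genes 8 of 36 were called higher (all genes 14.2%), and 27 without replicate 3 (all genes 20.3%). Tk1, thymidine kinase, was at 41.6, 42.7 and 40.6 TPM in E76Q and 143, 135 and 51 TPM in E113Q, and lost the call without E113Q replicate 1 (adjusted p = 0.0814) or 2 (0.0742). Cdt1, which licenses origins and lies on chromosome 8, was at 14.7, 15.4 and 16.2 TPM in E76Q and 55.9, 49.7 and 22.8 TPM in E113Q, and lost it with the chromosome medians removed (adjusted p = 0.0688). With that step 3 of the 36 were called higher, where 11.2% of all genes were. Ccnd1, cyclin D1, was at 93.8, 96.5 and 95 TPM in E76Q and 229, 229 and 112 TPM in E113Q, and lost the call without E113Q replicate 1 or 2 (adjusted p = 0.0659 and 0.0644). Both replicates were above E76Q by more than replicate 3 was. The kinase inhibitor Cdkn2c was at 27, 28.5 and 26.4 TPM in E76Q and 71.9, 64.3 and 36 TPM in E113Q. Cdkn1a, the p21 inhibitor, was at 273, 281 and 255 TPM in E76Q and 256, 250.4 and 241 TPM in E113Q and was not called.

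**Figure D4:**
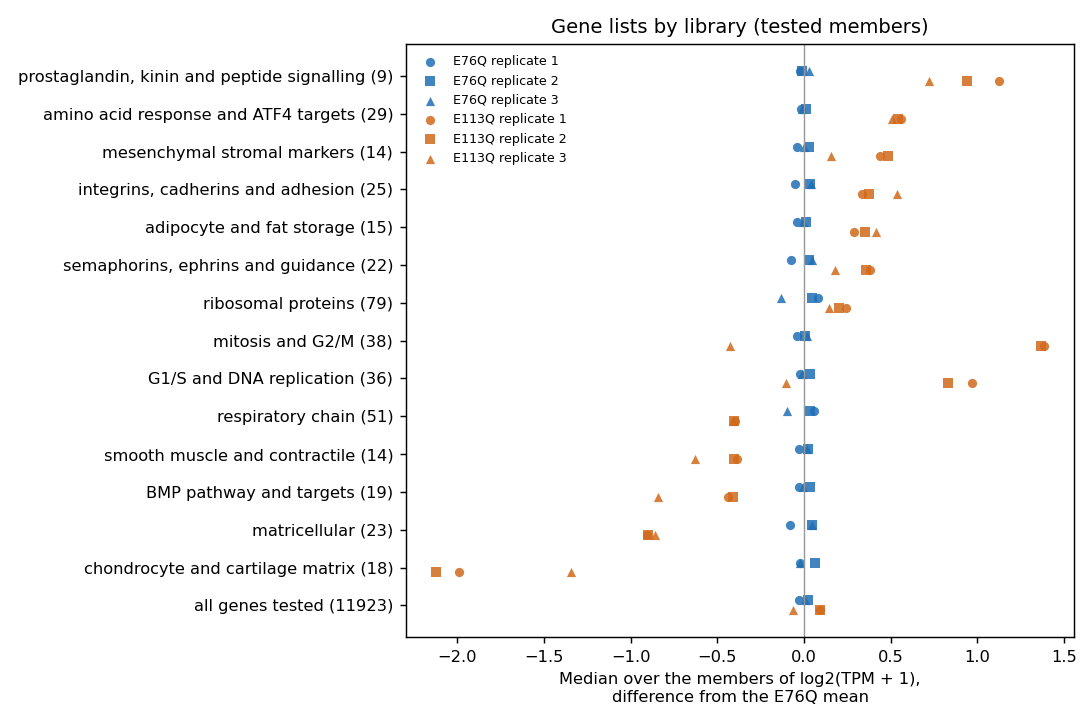
Median over the tested members of each gene list (number in brackets) of the log2(TPM + 1) difference from the E76Q mean, by library. The 3 E113Q libraries lie together for the amino acid, respiratory chain and matricellular lists, and E113Q replicate 3 lies apart from its mates for mitosis (1.39, 1.37 and -0.43) and for replication.

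The H2B genes themselves were read with caution, because their coding sequences are nearly identical and an added H2B cannot be told from them in gene totals. Over 18 H2B genes of the table the sum was 375.9, 401.8 and 386.8 TPM in E76Q and 288.6, 265.6 and 366.1 TPM in E113Q. Of the 12 that were tested 2 were called higher and 2 lower, 3 and 2 without E113Q replicate 3. Hist1h2bc, the highest of them in E76Q, was at 187, 186 and 149 TPM in E76Q and 68.3, 63.6 and 104 TPM in E113Q, and Hist1h2br was lower at a log2 fold change of -1.26 ± 0.32 (SE), a call that was lost without E113Q replicate 2 (adjusted p = 0.0544). Hist2h2be, which has a polyadenylated transcript, was at 44.4, 49.2 and 52.8 TPM in E76Q and 107, 99.1 and 154 TPM in E113Q, and Hist1h2bk was higher at a log2 fold change of 2.00 ± 0.47 (SE). Of 40 genes for acidic patch binders, H2B ubiquitination enzymes and histone chaperones 3 were called higher and 0 lower (all genes 14.2% and 8.53%). The 3 were Hira, Smarca5 and Ubr7, which lie on chromosomes 16, 8 and 12, and none was called with the chromosome medians removed. Without E113Q replicate 3, 11 of the 40 were called higher and 0 lower, in a fit that called 20.3% of all genes higher and 8.03% lower.

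Of the lineage regulators followed whatever their result, Runx2, which drives bone formation, was at 13.4, 17.2 and 22 TPM in E76Q and 16.3, 18.1 and 15.6 TPM in E113Q and was not called. Sp7, which acts after it, was at or below 0.154 TPM in the 6 libraries and was not tested. Scx, of tendon, was at 15.5, 15.3 and 16 TPM in E76Q and 22.3, 20.2 and 37.9 TPM in E113Q and was not called (adjusted p = 0.0666). E113Q replicate 3 was again the highest of its group. Tnmd, a tendon gene, was listed at 0 in each E76Q library and was at 3.98, 4.63 and 31.9 TPM in E113Q. Of 14 mesenchymal markers 5 were called higher and 0 lower, among them Eng, endoglin, at 1.67, 2.3 and 1.36 TPM in E76Q and 15.8, 12.7 and 11 TPM in E113Q, and Twist1, at 25.7, 25.1 and 24.1 TPM in E76Q and 59.2, 51.5 and 47 TPM in E113Q.

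Chemokine and complement genes were lower in some members and NF-kB genes higher in others. Of 26 tested 7 were called higher and 8 lower (all genes 14.2% and 8.53%), 8 and 7 without E113Q replicate 3 (all genes 20.3% and 8.03%). Ccl5 was at 113.3, 121 and 121 TPM in E76Q and 13.3, 12.3 and 9.76 TPM in E113Q, and Cx3cl1 at 55.9, 62.3 and 60.1 TPM in E76Q and 17.9, 18.5 and 12.8 TPM in E113Q. C3, the central complement protein, was at 12.4, 13.2 and 13.5 TPM in E76Q and 0.766, 0.652 and 1.92 TPM in E113Q. These secreted proteins were low in each E113Q library. Nfkbia and Tnfaip3, feedback inhibitors of NF-kB, were higher at log2 fold changes of 0.55 ± 0.13 (SE) and 0.84 ± 0.24 (SE), with Tnfaip3 in E113Q replicate 3 inside the E76Q range. Of 33 interferon-stimulated genes 2 were called higher and 4 lower (median -0.14), beside 14.2% and 8.53% of all genes. Without E113Q replicate 3 it was 6 and 1, beside 20.3% and 8.03%. The median level of the list relative to E76Q was 0.15 and 0.14 in E113Q replicates 1 and 2 and -0.88 in replicate 3. Ifih1, a sensor of viral RNA, was one of the higher genes, at 0.104, 0 and 0.0771 TPM in E76Q and 9.67, 10.2 and 4.28 TPM in E113Q. Isg15, a ubiquitin-like protein, was lower, at 584, 578 and 503 TPM in E76Q and 423, 383 and 138 TPM in E113Q, with replicate 3 the lowest, and lost the call without that library (adjusted p = 0.153). Ifi44 and Gbp3 were lower at log2 fold changes of -1.22 ± 0.41 (SE) and -1.21 ± 0.37 (SE) and lost the call in the same way (adjusted p = 0.166 and 0.105).

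Neighbouring genes were searched for runs of at least 3 adjacent tested genes called in the same direction with at least 2-fold change, and some of the runs follow. On chromosome 10 Perp, Hebp2 and Nhsl1 lie next to each other among tested genes, and Nhsl1 was at 4.8, 5.94 and 5.78 TPM in E76Q and 23.2, 22.6 and 22.5 TPM in E113Q. On chromosome 6 the imprinted gene Sgce was listed at 0 in each E76Q library and was at 8.32, 8.29 and 5.47 TPM in E113Q, and so was its neighbour Casd1, at 3.89, 3.95 and 3.43 TPM. Pon3, the next gene, was at 0.261, 0.0669 and 0.133 TPM in E76Q and 2.96, 2.71 and 1.79 TPM in E113Q. On chromosome 3 Fabp4 and Fabp5 were joined by Pmp2, another fatty acid carrier, at 0.60, 0.461 and 0.734 TPM in E76Q and 5.88, 3.61 and 5.4 TPM in E113Q. Downward, Tmem176a and Tmem176b, a pair of membrane proteins, were at 71.3, 75.8 and 63.5 TPM in E76Q and 4.86, 4.03 and 3.3 TPM in E113Q and at 118, 117 and 107 TPM in E76Q and 7.85, 5.58 and 7.34 TPM in E113Q, next to Gpnmb at 11.4, 13.7 and 12.8 TPM in E76Q and 0.377, 0.547 and 0.242 TPM in E113Q. The same direction within each place was a condition of the search, and Nhsl1 and Fabp5 were expressed in both groups. How many such runs would arise if called genes were placed without regard to their neighbours was not tested.

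To ask whether the difference between the residues depends on the substituted amino acid, E113Q minus E76Q was set against E113K minus E76K, in which lysine reverses the charge and which uses no library of the first difference. The interaction was called positive for 2344 genes (19.7%) and negative for 1197 (10%). Between the lysine groups 1515 genes were called higher in E113K (12.7%) and 2344 lower (19.7%). Of the 1694 genes higher in E113Q than in E76Q, 376 were also higher in E113K than in E76K and 336 were lower. Of the 1017 lower genes 351 were lower with lysine too and 129 were higher. Slpi and Tspan7 differed in the same direction with both amino acids: with lysine the log2 fold changes were -4.32 and -4.61, and the interaction was -1.23 ± 0.61 (SE) for Slpi (adjusted p = 0.147, and called in 5 of 25 alternatives, among them the median-ratio rescaling at 0.0486) and 0.18 ± 0.33 (SE) for Tspan7 (adjusted p = 0.724). Ptgis and Hdac11 were higher with lysine too (4.82 and 6.66), and their interactions were not called (adjusted p = 0.415 and 0.0706) but were in 1 and 3 of the alternatives.

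Other genes differed with glutamine and not in the same way with lysine. Thy1 had a log2 fold change of -0.77 between the lysine groups, where both express it, and its interaction was 6.73 ± 0.27 (SE) (adjusted p = 1.52e-11). Gstt3, a glutathione transferase, was at 0, 0.0633 and 0.126 TPM in E76Q and 16, 14.1 and 20.3 TPM in E113Q, and in the lysine groups at 13.3 ± 1.04 TPM in E76K and 0.244 ± 0.0976 TPM in E113K. Abi3bp, a matrix protein that binds the adaptor ABI3, was at 2.6, 3.16 and 3.52 TPM in E76Q and 41.8, 43.5 and 77.6 TPM in E113Q, with 83.2 ± 64 TPM in E76K and 4.47 ± 0.634 TPM in E113K. So both were high in E113Q and E76K and low in E76Q and E113K. Emb, embigin, a partner of lactate transporters, was the reverse: 23.4, 24.9 and 25.3 TPM in E76Q and 3.89, 6.54 and 1.96 TPM in E113Q, with 0.148 ± 0.0397 TPM in E76K and 15.5 ± 0.453 TPM in E113K. Vamp5, a vesicle protein, was at 32.4, 30.3 and 27.1 TPM in E76Q and 1.06, 0.994 and 0.861 TPM in E113Q, and its interaction was -5.71 ± 0.22 (SE). Bc1, a small non-coding RNA, was listed at 0 in E76Q and was at 27.4, 28.4 and 0 TPM in E113Q, where it was not called. The median of the mitosis list was -1.91 and that of the amino acid list -0.77 between the lysine groups, against 0.78 and 0.52 between the glutamine groups. The cartilage list had a median of 0.03 with lysine and -1.78 with glutamine. Its members were tested by their level in the glutamine groups, and the list was low in both lysine groups. Relative to the E76Q mean it stood at -2.55, -2.49 and -2.53 in E76K and at -2.575, -2.67 and -2.68 in E113K. The respiratory chain had medians of -0.39 with lysine and -0.38 with glutamine.

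**Figure D5:**
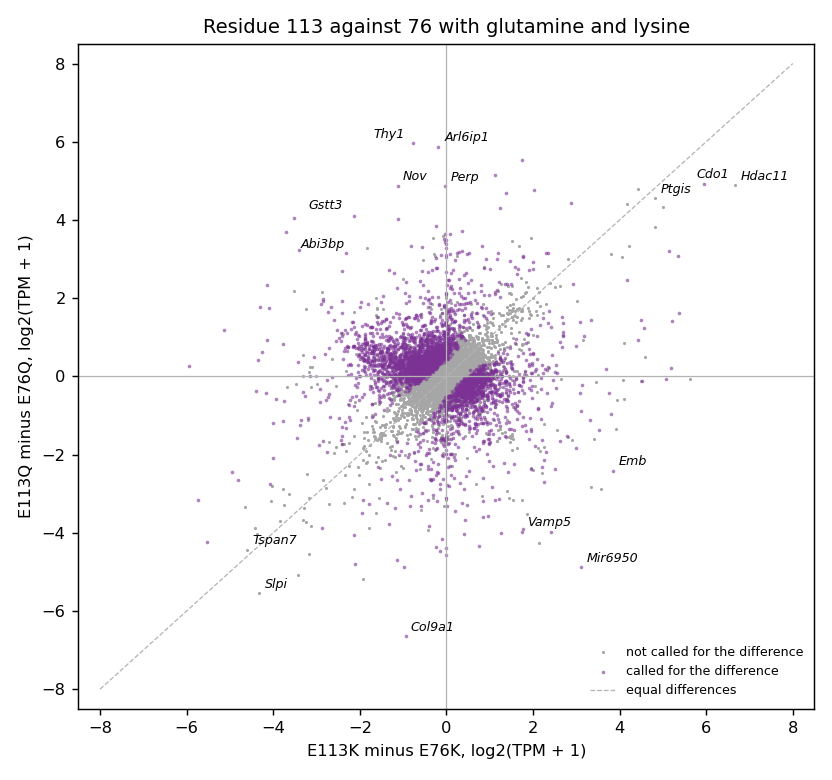
Log2(TPM + 1) difference between the E113 and E76 groups with glutamine (vertical axis) against that with lysine (horizontal axis) for the 11923 genes, with the 3541 called for the interaction in purple and the dashed line marking equal differences. Slpi, Tspan7 and Ptgis lie near the line, Arl6ip1 and Perp lie above it at a lysine difference near 0, and Emb and Mir6950 lie in the opposite quadrant.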

How the data were processed

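Per the labels' protocols, cell RNA was purified on RNeasy columns and sequencing libraries came from NEBNext Ultra II kits. The authors deposited TPM per gene and library; the submitters' processing notes name Salmon, featureCounts 1.4.4, DESeq and build mm10, and which tool made the TPM is not given in the sources used here. Library sums were 999897 to 999931. Strandedness and RNA selection are not given.

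From these values log2(TPM + 1) was fitted with limma 3.58.1 in R 4.3.3 to 7 group means over 21 libraries with a mean-variance trend (residual degrees of freedom 14, prior 3.35). Two-sided p-values were adjusted by Benjamini-Hochberg over the 11923 genes averaging 1 TPM or more in the 6 libraries compared. Log2 fold changes are on the log2(TPM + 1) scale, which understates changes of low genes. With 3 libraries a group, p-values measure the spread between these samples, pooled within groups over all 21 libraries. The groups not compared therefore set part of that spread. In them Mir6236 took up to 30.6% of the TPM (E71K replicate 2). A fit of only the 6 libraries compared called 1847 genes higher and 1492 lower. The 53 gene lists and the genes named were chosen with earlier results of these data known. Named genes were the 12 largest called changes in each direction (mean of at least 5 TPM, groups without overlap, called without E113Q replicate 3), the 6 largest in TPM, up to 5 called members of a list, followed regulators and 4 interaction genes in each direction; other list members and neighbours were named after their values were seen, and some genes that the rule names are not reported here. Positions and promoters come from RefSeq (GRCm38.p6), matched by Entrez Gene for 24045 of 24091 genes. Replicate numbers did not pair the libraries. The procedure was tested on simulated data. Alternatives covered pseudocounts, filters, scaling, variance moderation, the replicate block and left-out libraries; 3 more were added after the data were seen.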

Additional observations from a re-analysis of the deposited data

Results flagged for a closer look

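The difference between E113Q and E76Q was not the same as that between E113K and E76K for 40 of the 51 genes named for their size, level, interaction or as followed regulators, by limma's test of the interaction. Over all genes tested the interaction was called for 29.7%. Of the 51 genes, 8 were named because their interaction was called. Those named by size or level were chosen for a called glutamine difference, which is a part of the interaction. The share among the 51 is therefore partly set by the choice. Of the 40 calls 32 held in each of 25 alternatives, and 8 were lost in at least 1: Eef1a1 in 14, Col2a1 in 8, Rplp1 and Scx in 6, Cdo1 in 4, and Bc1, Fmod and Mir6935 in 1. Values are the glutamine difference minus the lysine difference on the log2(TPM + 1) scale, and no explanation was weighed. Genes of cartilage and matrix had negative values: Col9a1 (-5.71), Fmod (-2.67), Col2a1 (-1.25), Sox9 (-1.02) and Fn1 (-1.95), with Col1a1 on the other side (0.70). Surface and secreted proteins had Emb (-6.26) and Cxcl12 (-1.49) below 0, and Thy1 (6.73), Nov (6.01), Abi3bp (7.40), Anpep (3.78), Grem1 (3.67) and Perp (4.90) above it. Among enzymes and carriers, Akr1c13 (-4.32) and Cdo1 (-1.02) were negative and Gstt3 (7.58), Gxylt2 (3.32), Renbp (2.76) and Hebp2 (4.04) positive. Vesicle and contractile genes were Vamp5 (-5.71) and Acta2 (-1.72), and Arl6ip1 of the endoplasmic reticulum had 6.08. Of the transcription factors and the cell cycle genes, Hoxc9 had -3.55, and positive values were seen for Pparg (0.69), Scx (1.14), Mki67 (2.40) and Cdkn1a (0.52). Other abundant genes had positive values: Eef1a1 (0.41), Rplp1 (0.60), Rps12 (0.83), Lgals1 (0.70) and S100a4 (0.93), with Dtx3 (-1.80) and Gm20594 (-1.43) negative. Loci of unknown or non-coding RNA were Mir6950 (-8), Mir6935 (-6.40), Mir8109 (-4.56), 1700019B21Rik (-3.91) and Bc1 (6.63); the hairpins lie inside Loxl2, Actg1 and Neto2. Bc1 and Mir6935 varied widely within E113Q, from 0 to 28.4 TPM and from 0 to 273 TPM, and Mki67 rests on E113Q replicates 1 and 2.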

How the results depend on the processing

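A further limit of 1 on the absolute log2 fold change left 504 higher and 462 lower genes for E113Q minus E76Q, and 1221 and 653 for the interaction with lysine. Calls downward depended on the scaling: they were 2314 after the median-ratio rescaling, 2305 under quantile normalization and 2301 without Mir6236, and 2583, 2746 and 2286 for the interaction. With only the libraries of the groups compared, the interaction had 2098 negative calls. Leaving out 1 library in turn gave 1163 to 2418 genes higher and 739 to 958 lower, and 1896 to 2799 positive and 858 to 1321 negative for the interaction, the highest counts upward being those without E113Q replicate 3. Of the fits chosen after the data were seen, a fit of the 6 libraries without E113Q replicate 3 called 3815 higher and 2239 lower, and a fit without the 4 libraries set apart (E71K replicate 3, E71Q replicate 1, E76K replicate 3 and E113Q replicate 3) called 3397 and 1946, with 2528 negative for the interaction. With replicate number as a block the calls were 1766 higher and 1105 lower, and no named gene changed its call for E113Q minus E76Q; same-numbered deviations correlated between -0.03 and -0.01. No named gene changed sign for E113Q minus E76Q. For the interaction, Ptgis became 0.61 with a pseudocount of 0.1 and 0.10 with chromosome medians removed, Tspan7 -0.22 under quantile normalization, and Gm5886 -0.47 without E113Q replicate 3 and -0.66 without the 4 libraries (0.37 as reported, 0.86 without E113Q replicate 1); the cause was not tested. Library weights were planned but did not converge and were not used. The depth is unknown, so values of 0 carry no upper limit, and differences in genes of a few TPM are the least certain.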
